A study of Mus musculus with 6 samples.

Results

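The 9 co-stimulatory receptor genes of T cells described here were taken by their symbols from a table of 54532 genes: Cd28, Icos and Cd226 of the immunoglobulin superfamily, Cd27, Tnfrsf4 (OX40), Tnfrsf9 (4-1BB), Tnfrsf18 (GITR) and Tnfrsf1b (TNF receptor 2) of the TNF receptor superfamily, and Slamf1 of the SLAM family. The list was drawn up by gene name with earlier results of these data known, and all 9 passed the filter on low counts. RNA was sequenced from marrow cells taken with CD8 magnetic beads from female CByB6F1 mice, an F1 hybrid, aged 2 to 5 months and with immune bone marrow failure, in which T cells destroy the blood-forming marrow. Ruxolitinib, which blocks the kinases JAK1 and JAK2, had been given to the mice of 3 libraries (pools 1 to 3), and the mice of the other 3 (pools 4 to 6) were untreated controls with the same disease. Each library pooled the cells of 2 to 3 mice of its group, so the pools are separate biological samples and no value belongs to a single mouse. The labels used here do not state the dose, the length of treatment or the day of marrow collection.

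A T cell that meets its antigen needs a further signal through a co-stimulatory receptor to divide, survive and make cytokines. CD28 is present before activation and binds CD80 and CD86, while ICOS, OX40, 4-1BB and GITR are put on the cell surface or increased after activation, and CD27 is carried by naive and memory cells and bound by CD70. The TNF receptor members signal through TRAF adaptor proteins to NF-kB, CD28 and ICOS recruit PI3 kinase, and SLAMF1 recruits the adaptor SAP. JAK-STAT signalling from cytokine receptors and NF-kB and AP-1 from the antigen receptor are known regulators of several of these genes.

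Tnfrsf9, Tnfrsf18 and Tnfrsf1b are the members whose promoter windows held the letters of a STAT-type site, and they are shown for that reason. Windows of 250 bases before to 50 after an annotated start (RefSeq, GRCm38.p6) were matched by symbol for 6 of the 9 genes, with 2 windows for Tnfrsf9, and no window was matched for Cd28, Icos and Cd226. Each sequence runs 5′ to 3′ on the strand of its gene. Capitals mark matches, on either strand, to a GAS-like STAT motif (TTCNNNGAA), a kappaB-like motif (GGG, any 5 bases, then CC) or an AP-1 motif (TGANTCA).
Tnfrsf9 (chr4:150927749-150928048, plus strand, the second of its windows): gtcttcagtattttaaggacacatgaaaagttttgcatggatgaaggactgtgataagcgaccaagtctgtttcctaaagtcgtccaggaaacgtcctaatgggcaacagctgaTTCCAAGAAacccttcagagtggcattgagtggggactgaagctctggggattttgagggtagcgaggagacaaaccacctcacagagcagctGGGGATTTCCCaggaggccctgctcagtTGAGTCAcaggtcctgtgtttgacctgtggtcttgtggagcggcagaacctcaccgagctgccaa
Tnfrsf18 (chr4:156026072-156026371, plus strand): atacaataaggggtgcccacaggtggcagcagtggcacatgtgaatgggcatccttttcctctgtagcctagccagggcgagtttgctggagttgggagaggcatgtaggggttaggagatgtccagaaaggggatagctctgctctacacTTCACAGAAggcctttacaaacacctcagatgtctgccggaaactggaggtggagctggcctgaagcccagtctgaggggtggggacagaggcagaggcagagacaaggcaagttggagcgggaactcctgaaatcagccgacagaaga
Tnfrsf1b (chr4:145246821-145247120, minus strand): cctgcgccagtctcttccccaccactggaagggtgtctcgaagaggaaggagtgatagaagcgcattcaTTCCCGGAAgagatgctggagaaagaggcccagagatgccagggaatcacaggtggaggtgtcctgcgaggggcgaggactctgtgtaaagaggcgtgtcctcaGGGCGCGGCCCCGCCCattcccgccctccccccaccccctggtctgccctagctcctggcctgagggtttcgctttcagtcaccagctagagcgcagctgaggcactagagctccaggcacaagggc
The Tnfrsf9 window held all 3 kinds of match, the GAS-like one beginning at position -136 from the start, 2 overlapping kappaB-like ones downstream of it, and the AP-1 one at -15. Tnfrsf18 held a GAS-like match alone, at -99. Tnfrsf1b held a GAS-like match at -181 and 3 overlapping kappaB-like matches nearer to the start. Of the other windows, that of Cd27 held kappaB-like letters, and those of Tnfrsf4, Slamf1 and the first of Tnfrsf9 held none of the motifs. Among all 32851 windows of this length, 8.3% held the GAS-like motif, 50.8% the kappaB-like and 7.81% the AP-1 motif. These matches are letters in a window and not measured sites, and the gene-level counts do not say which start was used.

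The libraries held 13829808 to 17708196 counted reads, and each member had between 44 and 7402 reads in any library. Levels are CPM, reads scaled to a common library size with TMM factors, which correct for differences in library composition, and means carry the SD of 3 pools. Each log2 fold change sets ruxolitinib over control and carries its SE. EdgeR's quasi-likelihood test gave the p-values, with Benjamini-Hochberg adjustment over 13480 genes, and a gene was called at an adjusted p under 0.05. In this comparison 25.3% of all tested genes were lower and 29.9% higher in the ruxolitinib pools, 55.2% in all. The CD8 T cell identity genes, a list of 17 that holds Cd8a, Cd8b1 and the CD3 and T cell receptor constant genes, moved in the same libraries. Their geometric mean was 91.3, 109.7 and 251 CPM in ruxolitinib pools 1, 2 and 3, against 519.5, 524 and 433 CPM in control pools 4, 5 and 6, and 16 of the 17 were lower, among them Cd8a (log2 fold change -1.72 ± 0.39), Cd8b1 (-1.73 ± 0.39) and Cd3e (-1.45 ± 0.38). Trbc2 and Thy1 were the most abundant of these genes. Haemoglobin genes took 13.4 to 22.6% of the counts in the ruxolitinib pools, against 0.179 to 0.258% in the control pools. In such bulk samples fewer T cells and less RNA per T cell cannot be told apart.

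Of the 9 co-stimulatory receptor genes, Tnfrsf9, Cd226, Tnfrsf18, Slamf1, Tnfrsf4 and Cd28 fell in the ruxolitinib pools, none rose, and Cd27, Tnfrsf1b and Icos did not pass the test. The 6 of 9 that fell stand beside 25.3% of all genes tested. The median log2 fold change of the 9 was -0.99, that of all tested genes 0.03 and that of the 17 identity genes -1.70. When libraries were instead scaled to the identity genes, none of the 9 was lower, Icos and Tnfrsf1b were higher, and the median of the 9 was 0.73. That scaling moved the median of all tested genes to 2.00 and called 71.1% of them higher and 0.482% lower. It gives each gene relative to T cell content as the identity genes measure it, and it assumes that those genes do not themselves respond to ruxolitinib.

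**Figure D1:**
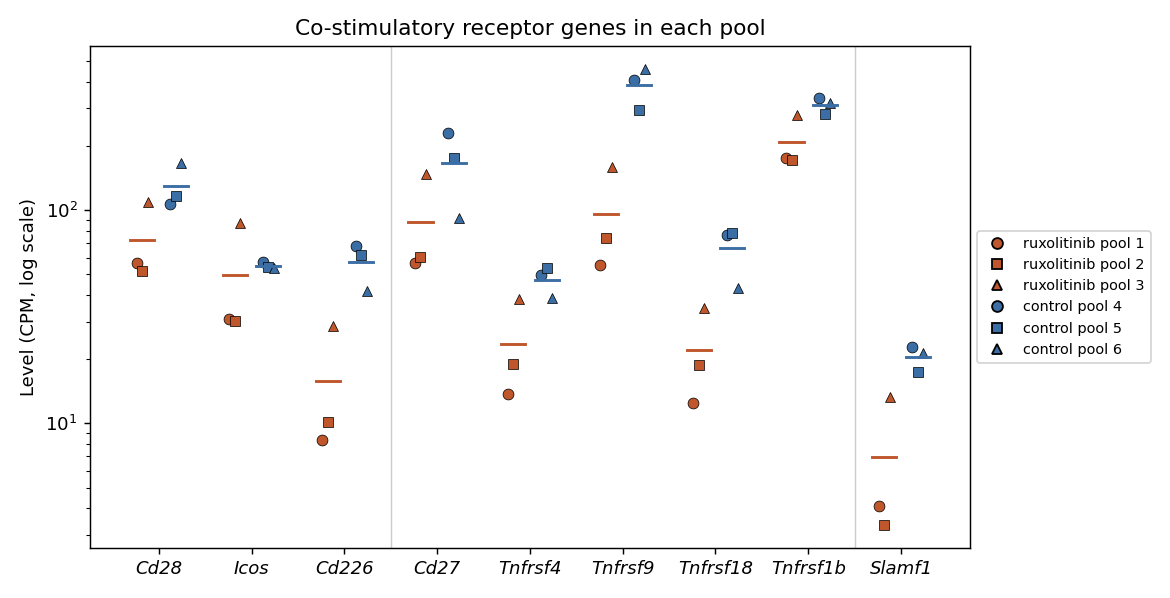
Level of each receptor gene (CPM, log axis) in ruxolitinib pools 1 to 3 (left, orange) and control pools 4 to 6 (right, blue), with a bar at each group mean and vertical lines between the immunoglobulin, TNF receptor and SLAM families. Ruxolitinib pool 3 was the highest of its group for all 9 genes, and Tnfrsf9 shows the widest gap between the groups, with 159 CPM in ruxolitinib pool 3 against 295 CPM in control pool 5.

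Tnfrsf9 encodes 4-1BB, a receptor that appears on CD8 T cells after antigen contact and supports their survival. It had 55.5, 74.2 and 159 CPM in ruxolitinib pools 1 to 3, against 409.9, 295 and 461 CPM in control pools 4 to 6. Every ruxolitinib pool lay below every control pool, with a wide gap between ruxolitinib pool 3 and control pool 5. The mean was 96.3 ± 55.3 CPM in ruxolitinib pools and 389 ± 84.7 CPM in control pools (log2 fold change -2.01 ± 0.39, adjusted p = 0.00189 by edgeR). A lower fold change was found for 4.58% of the tested genes. The gene lies on chromosome 4 at 150914562 to 150946102 (mm10, as deposited), and the antisense gene Camta1 overlaps it with 681 reads over all 6 libraries, which could be shared between them since no label states whether the counting used strand. Gm16008, antisense to Tnfrsf18, had 17 reads over all libraries.

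Tnfrsf18 and Tnfrsf4 encode GITR and OX40, receptors of activated T cells that regulatory T cells carry at rest. They are neighbours on the plus strand of chromosome 4, at 156026164 to 156028895 and 156013843 to 156016612, 9551 bases apart. Tnfrsf18 had 12.4, 18.7 and 35.0 CPM in ruxolitinib pools 1 to 3, against 76.8, 78.6 and 43.1 CPM in control pools 4 to 6 (log2 fold change -1.58 ± 0.38, adjusted p = 0.00620 by edgeR). The groups did not overlap, with control pool 6 lower than the other controls. Tnfrsf4 had 13.7, 18.9 and 38.4 CPM in ruxolitinib pools 1 to 3, against 49.5, 53.5 and 38.8 CPM in control pools 4 to 6 (-0.99 ± 0.35, adjusted p = 0.0359). Here ruxolitinib pool 3 and control pool 6 were nearly level. The ratio of Tnfrsf18 to Tnfrsf4 per length was 0.814, 0.885 and 0.815 in ruxolitinib pools, against 1.39, 1.32 and 0.995 in control pools (p = 0.1 by an exact permutation test, two-sided, the lowest that 3 against 3 allows), so Tnfrsf18 was the less abundant of the pair in every ruxolitinib pool and close to or above Tnfrsf4 in the controls. This ratio is taken within a library and does not change with library scaling.

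Cd27 and Tnfrsf1b, the remaining TNF receptor members, did not pass the test. CD27 is lost from T cells at the end of effector differentiation and is also carried by B cells and progenitors. Cd27 had 56.6, 60.4 and 148 CPM in ruxolitinib pools 1 to 3, against 230.4, 176 and 91.8 CPM in control pools 4 to 6 (log2 fold change -0.91 ± 0.43, adjusted p = 0.0963 by edgeR). The groups overlapped, since control pool 6 lay below ruxolitinib pool 3. The gene lies on chromosome 6 at 125232622 to 125237010 on the minus strand, inside Vamp1 on the plus strand, which had 481 reads over all 6 libraries.

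TNF receptor 2 is carried by activated T cells, regulatory T cells and also by monocytes and macrophages, and it binds TNF and lymphotoxin alpha. Tnfrsf1b had 176, 172 and 279.9 CPM in ruxolitinib pools 1 to 3, against 337, 282 and 317 CPM in control pools 4 to 6 (-0.58 ± 0.25, adjusted p = 0.0733 by edgeR, and 0.0486 by limma-voom). The groups did not overlap, but ruxolitinib pool 3 and control pool 5 were almost level. The gene lies on chromosome 4 at 145213463 to 145246870. Over all members, 6 of the 9 had groups that did not overlap with ruxolitinib lower, as had 30.3% of all tested genes, and 66% of all tested genes had groups that did not overlap in either direction.

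Cd28 and Icos lie on the same stretch of chromosome 1, at 60716800 to 60773359 and 60977927 to 61000320, with the inhibitory receptor gene Ctla4 between them at 60887000 to 60915832. Cd28 had 56.4, 51.8 and 109 CPM in ruxolitinib pools 1 to 3, against 107, 117 and 166 CPM in control pools 4 to 6 (log2 fold change -0.85 ± 0.31, adjusted p = 0.0424 by edgeR). Ruxolitinib pool 3 lay just above control pool 4, so the groups overlapped, and the call was close to the threshold. Icos had 31.0, 30.3 and 87.0 CPM in ruxolitinib pools 1 to 3, against 56.9, 54.1 and 53.8 CPM in control pools 4 to 6 (-0.15 ± 0.38, adjusted p = 0.751). Its control pools lay close together, while the ruxolitinib pools lay on both sides of them, pools 1 and 2 below and pool 3 above.

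Ctla4 encodes CTLA-4, which competes with CD28 for its ligands, and its profile was the nearest to that of Icos among 9436 protein-coding genes of at least 5 CPM, with a root mean square difference of 0.067 between their centred log2(CPM + 1) values over the 6 libraries. Ctla4 had 25.9, 24.4 and 63.8 CPM in ruxolitinib pools 1 to 3, against 43.7, 40.2 and 42.8 CPM in control pools 4 to 6. The ratio of Icos to Ctla4 per length stayed between 0.812 and 0.926 in ruxolitinib pools and between 0.853 and 0.914 in control pools (exact two-sided permutation p = 0.6). By contrast the ratio of Icos to Cd28 per length was 0.979, 1.04 and 1.43 in ruxolitinib pools, against 0.948, 0.824 and 0.577 in control pools (exact two-sided permutation p = 0.1). For the other members the nearest profiles were Gpr132 and Spata13 for Cd28, Jak3 and Tigit for Cd27, Slc4a8 and Slc2a1 for Tnfrsf4, Prss50 and Map4k1 for Tnfrsf9, Acot7 and Ifi208 for Tnfrsf18, Slc25a53 and Samsn1 for Tnfrsf1b, Gimap7 and Gzmk for Cd226, and Pglyrp2 and Tnfsf10 for Slamf1. Chst2 was the next nearest to Icos.

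Cd226 encodes DNAM-1, an activating receptor of T cells, NK cells and platelets. It binds the ligands encoded by Pvr and Nectin2, and shares that of Pvr with the inhibitory receptors TIGIT and CD96. Cd226 had 8.34, 10.2 and 28.8 CPM in ruxolitinib pools 1 to 3, against 68.3, 61.4 and 41.6 CPM in control pools 4 to 6 (log2 fold change -1.85 ± 0.44, adjusted p = 0.00578 by edgeR). The groups did not overlap, and 5.86% of the tested genes had a lower fold change. The ratio of Cd226 to Tigit per length was 0.0390, 0.0379 and 0.0488 in ruxolitinib pools, against 0.0797, 0.104 and 0.118 in control pools (exact two-sided permutation p = 0.1). Each ruxolitinib pool thus held less Cd226 for its Tigit than any control pool.

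Slamf1 encodes SLAMF1, or CD150, a receptor that binds itself on neighbouring cells and is also a marker of blood stem cells. It was the rarest of the members, with 4.10, 3.35 and 13.3 CPM in ruxolitinib pools 1 to 3, against 22.8, 17.3 and 21.3 CPM in control pools 4 to 6 (log2 fold change -1.55 ± 0.47, adjusted p = 0.0187 by edgeR). The groups did not overlap. The gene lies on chromosome 1 at 171767127 to 171801184, far from Cd28 and Icos.

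Ruxolitinib pool 3 was the highest of its group for every member. It lay below all control pools for 6 members, within the range of the control pools for Cd28 and Cd27, and above all control pools for Icos. Its CPM was 1.61-fold (Tnfrsf1b) to 3.58-fold (Slamf1) that of the mean of pools 1 and 2, beside 2.50-fold for the geometric mean of the identity genes. Without pool 3 all 9 members were lower by edgeR, as were 23.3% of all tested genes, with log2 fold changes of -0.85 for Icos, -0.85 for Tnfrsf1b, -1.27 for Cd28, -1.51 for Cd27, -1.54 for Tnfrsf4, -2.09 for Tnfrsf18, -2.46 for Slamf1, -2.59 for Tnfrsf9 and -2.63 for Cd226. Without pool 1 or without pool 2 only 3 were, namely Tnfrsf9, Tnfrsf18 and Cd226, and these were past the threshold whichever of the 6 pools was left out. Of all tested genes 16.4% were lower without pool 1 and 19.7% without pool 2. Cd28 was also lost without control pool 5 (adjusted p = 0.0672) or 6 (0.106), and Tnfrsf4 without control pool 4 (0.0724) or 5 (0.0972). Scaling to total counts ended both calls as well (Cd28 adjusted p = 0.0931, Tnfrsf4 0.0778), as did a minimum of 1.5-fold (0.173 and 0.119), and upper quartile factors ended that of Cd28 (0.0555). Cd27 passed without control pool 6 (-1.21, adjusted p = 0.0296) and by limma-voom with quality weights (-1.40, adjusted p = 0.000694).

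**Figure D2:**
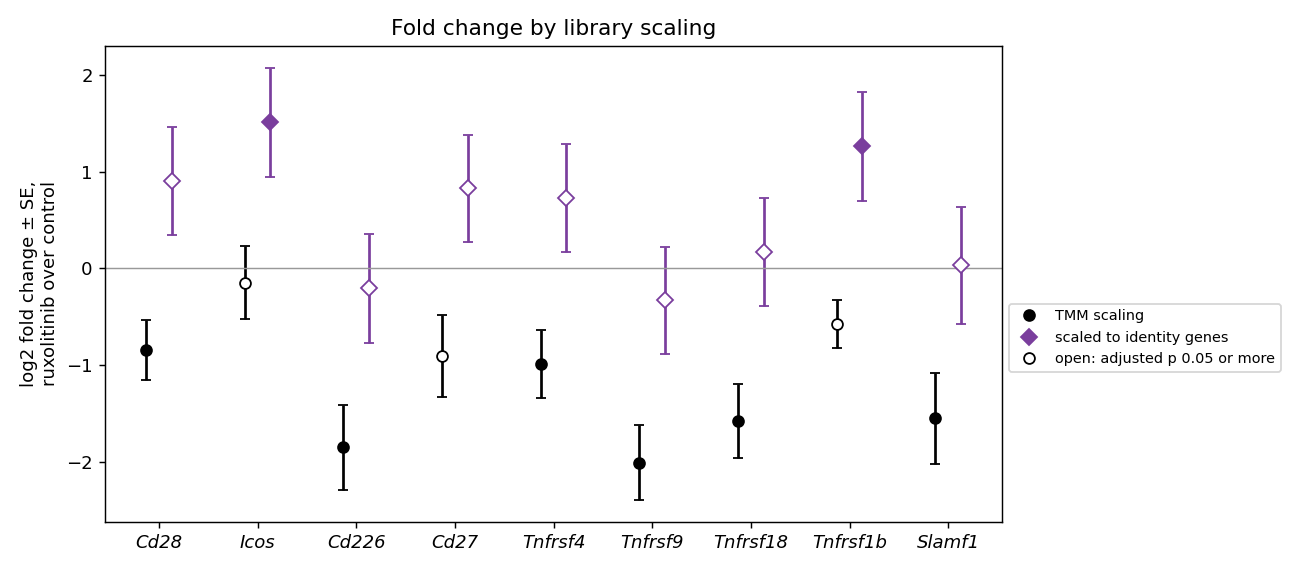
Log2 fold change ± SE of each receptor gene, ruxolitinib over control, from edgeR with TMM scaling (black circles) and with libraries scaled to the 17 identity genes (purple diamonds), filled where adjusted p was under 0.05. All 9 lie below 0 with TMM scaling, from -2.01 for Tnfrsf9 to -0.15 for Icos, whereas 7 lie above 0 with identity scaling and Tnfrsf9 (-0.33) and Cd226 (-0.20) below.

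The order of the members was not the same in both groups when levels were set per kilobase of the deposited gene length. In the ruxolitinib pools Tnfrsf1b led with 54.8 ± 16.0 CPM per kb, followed by Cd27 (37.9 ± 22.2), Tnfrsf9 (35.4 ± 20.3), Tnfrsf4 (17.3 ± 9.55), Tnfrsf18 (14.5 ± 7.63), Icos (14.4 ± 9.50), Cd28 (11.8 ± 5.18), Cd226 (6.69 ± 4.79) and Slamf1 (1.13 ± 0.904). In the control pools Tnfrsf9 led with 143 ± 31.1 CPM per kb, followed by Tnfrsf1b (81.8 ± 7.35), Cd27 (71.3 ± 30.0), Tnfrsf18 (43.4 ± 13.1), Tnfrsf4 (34.6 ± 5.57), Cd226 (24.2 ± 5.88), Cd28 (21.3 ± 5.19), Icos (16.0 ± 0.497) and Slamf1 (3.32 ± 0.456). In control pools Tnfrsf9 was above Tnfrsf1b, Tnfrsf4 above Cd226, Cd28 above Icos and Icos above Slamf1 by more than the larger SD of each pair, and the other neighbours in the order were not. In ruxolitinib pools the step from Cd226 to Slamf1 was the only one larger than the SDs of its pair. These SDs take in the higher level of pool 3, which all members shared, so they do not judge steps within a pool. Within every ruxolitinib pool Tnfrsf1b was also above Cd27, Tnfrsf9 above Tnfrsf4, Tnfrsf4 above Tnfrsf18 and Cd28 above Cd226. Within every control pool Cd27 was also above Tnfrsf18.

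Shares within a library do not depend on its scaling. Of the summed CPM per kb of the 9 genes, Tnfrsf9 made up 15.5, 18.6 and 19.3% in ruxolitinib pools 1 to 3, against 30.7, 26.3 and 41.0% in control pools 4 to 6. Tnfrsf1b made up 35.1, 30.7 and 24.1% in ruxolitinib pools and 17.99, 17.9 and 20.1% in control pools, and was the largest share in each ruxolitinib pool. Icos made up 6.86, 6.02 and 8.35% in ruxolitinib pools and 3.38, 3.83 and 3.80% in control pools. The groups did not overlap for any of these shares. Set against each other directly, Tnfrsf9 over Icos per length was 2.26, 3.09 and 2.31 in ruxolitinib pools and 9.08, 6.88 and 10.8 in control pools, a log2 difference of -1.80 (exact two-sided permutation p = 0.1, the smallest possible). This pair was chosen after its values were seen, and 5 such pair ratios were computed in all, with p-values not adjusted over them.

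**Figure D3:**
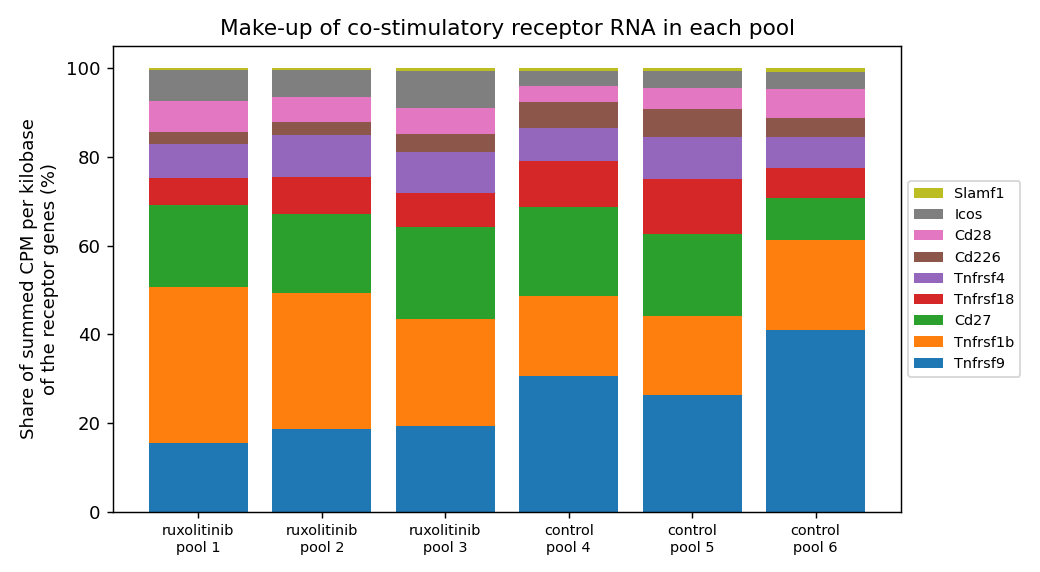
Share of each receptor gene in the summed CPM per kilobase of the 9 genes, as stacked bars that add to 100% in each pool, ruxolitinib pools on the left. Tnfrsf9 (blue) takes 15.5 to 19.3% in ruxolitinib pools and 26.3 to 41.0% in control pools, and Tnfrsf1b (orange) 24.1 to 35.1% and 17.9 to 20.1%.

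Divided by the geometric mean of the identity genes, 5 members stood higher in every ruxolitinib pool than in any control pool and 4 overlapped between the groups. Icos was at 0.339, 0.276 and 0.346 of the identity level in ruxolitinib pools 1 to 3, against 0.110, 0.103 and 0.124 in control pools 4 to 6. The 3 ruxolitinib pools were close together on this scale although pool 3 held 2.84-fold the Icos CPM of the others. Tnfrsf4 was at 0.150, 0.173 and 0.153 in ruxolitinib pools, against 0.0953, 0.102 and 0.0895 in control pools, again without overlap. Cd27 (0.586 ± 0.0348 in ruxolitinib pools and 0.330 ± 0.116 in control pools), Cd28 (0.508 ± 0.0973 and 0.271 ± 0.0981) and Tnfrsf1b (1.54 ± 0.411 and 0.640 ± 0.0975) did not overlap either (SD, n = 3 pools each). For each of these 5 genes the exact two-sided permutation p was 0.1, the smallest possible, and 72.4% of all tested genes had ruxolitinib pools wholly above control pools on this scale.

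Tnfrsf9, Cd226, Tnfrsf18 and Slamf1 overlapped between the groups on this scale. Tnfrsf9 was at 0.609, 0.677 and 0.634 of the identity level in ruxolitinib pools, against 0.789, 0.563 and 1.06 in control pools (exact two-sided permutation p = 0.4). Cd226 was at 0.0996 ± 0.0129 in ruxolitinib pools and 0.115 ± 0.0178 in control pools, Tnfrsf18 at 0.149 ± 0.0190 and 0.132 ± 0.0285, and Slamf1 at 0.0428 ± 0.0114 and 0.0420 ± 0.00820 (SD, n = 3 pools each). Between single pools the ratio of ruxolitinib to control ranged from 0.572 to 1.20 for Tnfrsf9, 0.696 to 1.19 for Cd226, 0.910 to 1.72 for Tnfrsf18 and 0.621 to 1.61 for Slamf1. These ranges give the spread of single pools and are not an interval for the group difference. EdgeR with identity scaling gave log2 fold changes of -0.33 ± 0.55 for Tnfrsf9, -0.20 ± 0.56 for Cd226, 0.17 ± 0.56 for Tnfrsf18 and 0.03 ± 0.60 for Slamf1. With such SEs a difference in either direction remains possible.

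In edgeR's fit with identity scaling, Icos (log2 fold change 1.51 ± 0.57, adjusted p = 0.0122) and Tnfrsf1b (1.27 ± 0.56, adjusted p = 0.0355) were higher. Cd28 (0.91 ± 0.56), Cd27 (0.83 ± 0.56) and Tnfrsf4 (0.73 ± 0.56) did not pass. The 2 of 9 members that were higher stand beside 71.1% of all tested genes. Without ruxolitinib pool 3 Icos, Tnfrsf1b, Cd28, Cd27 and Tnfrsf4 were all higher, without control pool 4 or 5 none was (Icos adjusted p = 0.0789 and 0.0906), and without any other single pool Icos alone was. Of all tested genes 84.3% were higher without ruxolitinib pool 3, 56% without control pool 4 and 54.7% without control pool 5, so the members' counts lay below the share of all genes. With TMM scaling, among 10 genes of monocytes and macrophages, some of which carry TNF receptor 2, 9 rose and Ccr2 fell. Of all tested genes 29.9% were higher and 25.3% lower with that scaling. The summed level of the 10 genes was 7268 to 11871 CPM in ruxolitinib pools, against 921 to 1236 CPM in control pools. Hmox1 and Lyz2 were the most abundant of them. On the identity scale Tnfrsf1b was at 1.93, 1.57 and 1.11 in ruxolitinib pools 1, 2 and 3, whose monocyte and macrophage sums were 11819, 11871 and 7268 CPM. The part of these cells in the Tnfrsf1b result was not tested.

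**Figure D4:**
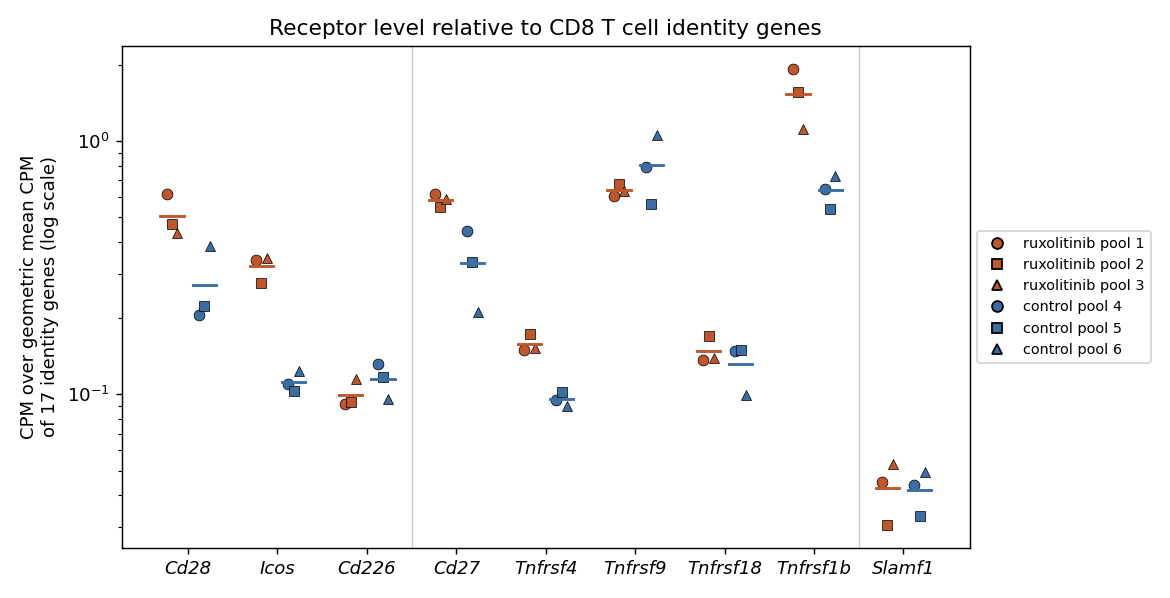
CPM of each receptor gene divided by the geometric mean CPM of the 17 identity genes (log axis) in ruxolitinib pools 1 to 3 (left, orange) and control pools 4 to 6 (right, blue), with a bar at each group mean. Icos and Tnfrsf4 stand clear of the controls with little spread, at 0.276 to 0.346 and 0.150 to 0.173 in ruxolitinib pools, while Slamf1 lies at the same height in both groups.

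Cells other than CD8 T cells also carry some of these receptors, and their markers moved too. The counts of markers in this and the next paragraph stand beside 29.9% of all tested genes higher and 25.3% lower. Of 6 tested genes of CD4 and regulatory T cells, Cd4 and Zbtb7b rose, with a summed level for the list of 225 to 249.7 CPM in ruxolitinib pools against 114 to 132 CPM in control pools. The higher sum came from Cd4 (100 ± 14.9 CPM in ruxolitinib pools and 6.38 ± 1.79 CPM in control pools) and Zbtb7b (65.6 ± 8.57 and 26.0 ± 10.3 CPM). Il2ra (log2 fold change -0.18), Ikzf2 (-0.41) and Ctla4 (-0.15) did not pass, and Cd40lg was too rare to test. Foxp3, the defining gene of regulatory T cells, which carry OX40, GITR and ICOS, was at 1.31 ± 0.689 CPM in ruxolitinib pools and 0.512 ± 0.260 CPM in control pools (adjusted p = 0.0790 by edgeR). All 10 B cell and plasma cell genes rose (a sum of 281 to 372 CPM in ruxolitinib pools, against 12.2 to 27.0 CPM in control pools), with Ms4a1 and Pax5 at 0 counts in every control pool and Jchain and Cd79b the most abundant, and Cd27 is also a B cell gene.

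Of 7 natural killer cell genes 4 were tested. Tyrobp and Fcer1g, the most abundant, rose, Klre1 fell and Eomes (log2 fold change -0.21) did not pass. The sum was 589.6 to 772 CPM in ruxolitinib pools, against 242 to 302 CPM in control pools. Its rise came from Tyrobp (296 ± 81.3 CPM in ruxolitinib pools and 49.5 ± 7.63 CPM in control pools) and Fcer1g (265 ± 59.0 and 61.2 ± 6.68 CPM). Ncr1 and Klra8, which mark these cells, had 0 to 7 reads in any library, and Klrb1c, also too rare to test, had 1 to 14. Platelet genes rose in 4 of 6 tested, while Pf4 (log2 fold change -0.63) and Itga2b (0.73), the most abundant, did not pass, and they summed to 33.9 to 62.9 CPM in ruxolitinib pools, against 21.4 to 51.0 CPM in control pools, with Gp1bb at 0 in every library. Progenitor genes, with Lmo2 and Kit the most abundant, rose in 4 of 6 tested and summed to 147 to 313 CPM in ruxolitinib pools, against 14.4 to 20.1 CPM in control pools. Of the most abundant neutrophil genes Ngp rose and S100a8 (1.23) did not pass, and the list rose in 7 of 9 and summed to 8406 to 19532 CPM in ruxolitinib pools, against 1471 to 5743 CPM in control pools. Of the most abundant dendritic cell genes Bst2 fell and Itgax (0.72) did not pass. The list rose in 4 of 9 (Siglech, Tcf4, Flt3 and Zbtb46) and fell in 3 (Bst2, Xcr1 and Batf3). Its sum was 109.5 to 135 CPM in ruxolitinib pools, against 257 to 281 CPM in control pools. Bst2 made up most of the control sum, at 40.2 ± 8.64 CPM in ruxolitinib pools and 210 ± 7.03 CPM in control pools. The lower sum therefore rests on that gene. All 8 tested erythroid genes rose, with Hba-a1 and Hbb-bs the most abundant. The part of these cells in the receptor levels was not tested.

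Of 10 tested ligands of the 9 receptors 3 were higher and 2 lower, near the 29.9% and 25.3% of all tested genes, and their median log2 fold change was -0.50. Icosl, the ligand of ICOS, rose to 9.12 ± 2.50 CPM in ruxolitinib pools, against 1.84 ± 0.405 CPM in control pools (2.30 ± 0.36, adjusted p = 0.000597 by edgeR). Cd86, a ligand of CD28 on antigen-presenting cells, had 39.9 ± 5.06 CPM in ruxolitinib pools and 21.1 ± 2.86 CPM in control pools (0.92 ± 0.21), and Nectin2, a ligand of CD226, was also higher (1.27 ± 0.40). Cd80, the other CD28 ligand, was lower, at 8.75 ± 0.755 CPM in ruxolitinib pools and 16.1 ± 1.62 CPM in control pools (-0.88 ± 0.23). Tnfsf9, the ligand of 4-1BB, was lower as well, at 0.886 ± 0.430 CPM in ruxolitinib pools and 4.25 ± 1.23 CPM in control pools (-2.25 ± 0.48, adjusted p = 0.00323). Cd70, Tnfsf4, Tnf, Lta and Pvr did not pass, and Tnfsf18 was too rare to test. With identity scaling none of the ligands was lower and Icosl, Cd86, Nectin2, Tnfsf4 (1.28) and Pvr (1.37) were higher. Cd80 (1.06) turned positive and did not pass, and Tnfsf9 was at -0.33. These 5 higher of 10 tested ligands stand beside 71.1% of all tested genes higher and 0.482% lower on that scale.

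Among 14 TRAF and NF-kB genes 3 were lower, 2 higher and 9 not past the threshold, and their median was -0.03. Of all tested genes 25.3% were lower and 29.9% higher. Traf5, an adaptor of OX40 and CD27, had 19.9 ± 4.56 CPM in ruxolitinib pools and 57.1 ± 9.34 CPM in control pools (log2 fold change -1.52 ± 0.24, adjusted p = 0.000596 by edgeR). Traf2, an adaptor of 4-1BB and TNF receptor 2, had 53.9 ± 10.7 CPM in ruxolitinib pools and 141 ± 39.2 CPM in control pools (-1.39 ± 0.25), and Birc2, a ubiquitin ligase bound to it, was lower (-0.73 ± 0.21). Birc3 (0.71 ± 0.22) and Traf3 (0.59 ± 0.23) were higher, but neither was called without ruxolitinib pool 1, ruxolitinib pool 3 or control pool 5, and 1 of the list was without control pool 4. Traf1, which activated T cells induce together with 4-1BB, was at 60.1 ± 30.2 CPM in ruxolitinib pools and 92.2 ± 17.7 CPM in control pools and did not pass (adjusted p = 0.136). With identity scaling 11 of the 14 were higher and none lower, near the 71.1% and 0.482% of all tested genes.

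Of 16 genes of CD28 and SLAM family signalling 6 were lower, 1 was higher and 9 were not past the threshold, and their median was -0.28. These counts stand beside 25.3% of all tested genes lower and 29.9% higher. Sh2d1a, which encodes SAP, the adaptor of SLAMF1, had 54.6 ± 31.7 CPM in ruxolitinib pools and 280.4 ± 109.6 CPM in control pools (log2 fold change -2.36 ± 0.42, adjusted p = 0.00126 by edgeR). Pik3cd, the catalytic PI3 kinase subunit of lymphocytes (-0.99 ± 0.28), Sh2d2a, an adaptor of LCK (-1.18 ± 0.42), and Prkcq, a kinase that links CD28 to NF-kB (-0.91 ± 0.32), were lower, as were Fyn and Itpkb. Pik3r1, the regulatory subunit of PI3 kinase, had 104 ± 14.8 CPM in ruxolitinib pools and 52.1 ± 5.27 CPM in control pools (1.00 ± 0.20, adjusted p = 0.00227). With identity scaling 11 of the 16 were higher and none lower, again near the 71.1% and 0.482% of all tested genes. Leaving out ruxolitinib pool 1 or pool 2 left 1 lower gene in this list, beside 16.4% and 19.7% of all tested genes. Leaving out control pool 4 or 5 left 2, beside 21.5% and 19.6%.

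The inhibitory receptors that share ligands or a family with these members fell in 3 of 6 genes and rose in none, with a median of -0.90. Of all tested genes 25.3% were lower and 29.9% higher. Cd160 had 16.3 ± 9.03 CPM in ruxolitinib pools and 159 ± 5.04 CPM in control pools (log2 fold change -3.28 ± 0.36, adjusted p = 9.95e-05 by edgeR), and Pdcd1 (PD-1, -1.37 ± 0.42) and Cd96 (-1.01 ± 0.34) were lower too. Ctla4 (-0.15 ± 0.35), Tigit (-0.75 ± 0.42) and Btla (-0.78 ± 0.31) did not pass. With identity scaling Cd160 was still lower (-1.57 ± 0.57, adjusted p = 0.00965), and Ctla4 was higher (1.55 ± 0.57, adjusted p = 0.0106) beside Icos (1.51). On that scale 0.482% of all tested genes were lower and 71.1% higher, and their median was 2.00. Leaving out ruxolitinib pool 1 or 2 left 1 lower gene of the 6, beside 16.4% and 19.7% of all tested genes. Leaving out ruxolitinib pool 3 made all 6 lower, beside 23.3%.

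Of 12 other tested co-stimulatory receptors 6 were lower, 1 was higher and 5 were not past the threshold, and their median was -0.78. The shares of all tested genes were 25.3% lower and 29.9% higher. Klrk1, which encodes NKG2D, had 14.7 ± 4.92 CPM in ruxolitinib pools and 62.5 ± 13.2 CPM in control pools (log2 fold change -2.08 ± 0.28, adjusted p = 0.000320 by edgeR). Tnfrsf25 (DR3, -2.93 ± 0.46), Cd244a (2B4, -1.86 ± 0.33) and Cd6 (-1.36 ± 0.34) were lower, as were Cd2 and Slamf7. Tnfrsf14 (HVEM), which B cells and myeloid cells also carry, had 34.2 ± 8.33 CPM in ruxolitinib pools and 3.95 ± 1.70 CPM in control pools (3.11 ± 0.37, adjusted p = 0.000154). With identity scaling 4 of the 12 were higher, beside 71.1% of all tested genes, and none lower. With TMM scaling, leaving out ruxolitinib pool 1 left 3 lower, beside 16.4% of all tested genes.

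**Figure D5:**
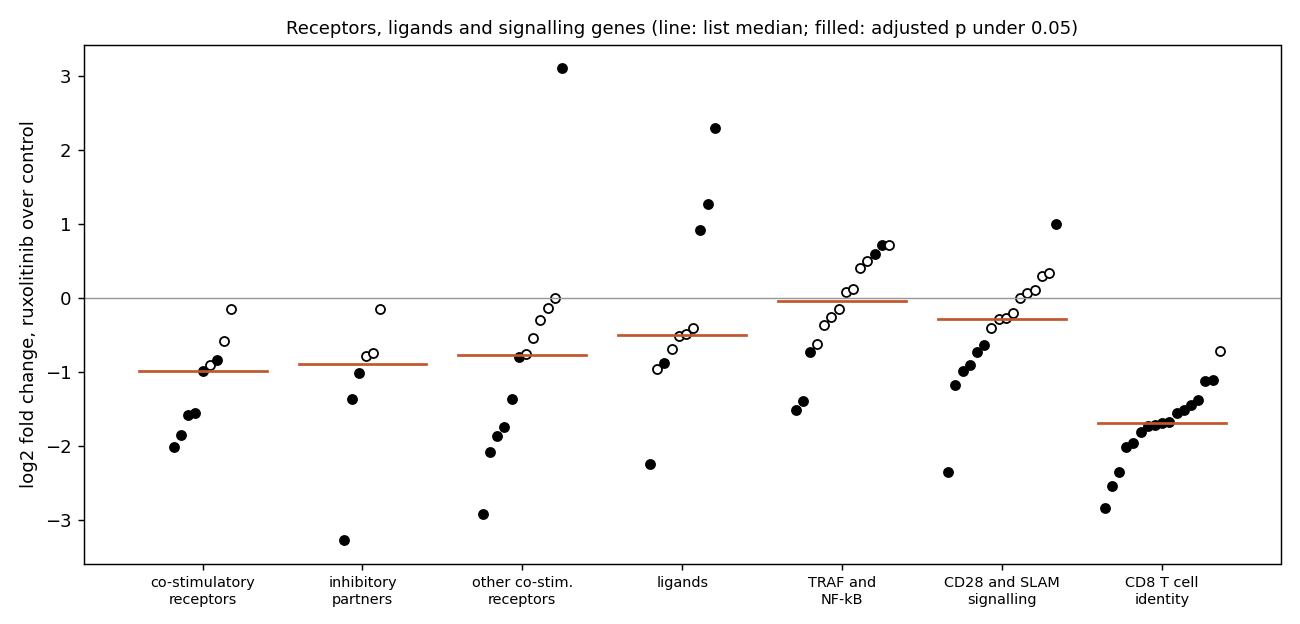
Log2 fold change, ruxolitinib over control with TMM scaling, of every tested gene in 7 lists, filled where adjusted p was under 0.05, with a line at each list's median. The medians run from -1.70 for the identity genes and -0.99 for the 9 receptors to -0.03 for the TRAF and NF-kB genes. Under identity scaling the medians of the receptors, inhibitory partners, other receptors, ligands, TRAF and CD28 lists were 0.73, 0.85, 1.08, 1.34, 1.87 and 1.68. All were above 0 and below the median of all tested genes on that scale, 2.00.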

How the data were processed

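The authors deposited raw read counts per gene for 6 libraries, which summed to 13829808 to 17708196, and a gene length in bases of unstated derivation. Per the submitters' processing notes, HISAT2 2.0.5 and mm10 were used. Neither the labels nor those notes name the counting program, its strand setting or the annotation. Per the labels, libraries were made with a NEBNext Ultra II kit. Deposited positions of 8 of the 9 members equal those in GENCODE release M21 (GRCm38), and that of Cd226 differs.

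The test of counts used edgeR 4.0.16 under R 4.3.3 (filterByExpr, TMM factors, glmQLFit with robust estimation, group as the only term), and 13480 genes passed the filter. SE is the log2 fold change divided by the square root of F. The members and gene lists were chosen with earlier results of these data known, and no set test was run. Named genes are the 9 members, up to 4 called genes with the smallest p in each direction from each pathway list, the 2 most abundant genes of each marker list, Cd8a, Cd8b1, Cd3e, and the 2 genes with the nearest profile to each member. Genes that complete a count were named after their values were seen. Alternatives used RLE, upper quartile and total-count scaling, other filters, DESeq2 1.42.0, limma-voom (limma 3.58.1), a 1.5-fold minimum, scaling to 17 identity genes or 3 CD3 genes, and leaving out each pool. The main fit with TMM scaling was tested on simulated data in which few genes changed, in random directions. That test did not cover a shift in library composition like the one here, or the scaling to identity genes.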

Additional observations from a re-analysis of the deposited data

How the results depend on the processing

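The count of 6 lower members was 3 to 9 with 1 pool left out and 0 with scaling to the CD8 identity genes or to Cd3d, Cd3e and Cd3g. It was 4 to 8 under the other alternatives. Total counts and a 1.5-fold minimum ended the calls of Cd28 and Tnfrsf4, and upper quartile factors that of Cd28. Limma-voom with quality weights added Cd27 and Tnfrsf1b. Of all tested genes 16.4 to 27.4% were lower with 1 pool left out, and 15.6 to 32.2% under those other alternatives. No member was higher except under the identity and CD3 scalings, where 2 and 1 were, beside 71.1% and 68.8% of all tested genes. A set of fits with 1 pool left out of the identity scaling was added after the data were seen. In those fits the count ran from 0 to 5, beside 54.7 to 84.3% of all tested genes. Over all genes, 3407 lower and 4037 higher became 65 and 9584 with identity scaling and 63 and 9268 with CD3 scaling, so that the higher share of calls went to 99.3% from 54.2%. A 1.5-fold minimum left 2172 lower.

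The log2 fold changes turned positive with identity and CD3 scaling for Cd28 (0.91 and 0.86), Icos (1.51 and 1.49), Cd27 (0.83 and 0.84), Tnfrsf4 (0.73 and 0.71), Tnfrsf18 (0.17 and 0.17), Tnfrsf1b (1.27 and 1.24, adjusted p = 0.0355 and 0.0510 by edgeR) and Slamf1 (0.0325 and 0.0037). Leaving out single pools moved Icos between -0.848 and 0.15, above 0 without ruxolitinib pool 1 (0.15) or pool 2 (0.10). On the identity scale Tnfrsf18 ran from -0.0024 without control pool 6 to 0.2649, and Slamf1 was at -0.16 without ruxolitinib pool 3 and -0.11 without control pool 5, and up to 0.2241 otherwise. The cause of these differences was not tested.

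For the lists, identity scaling and CD3 scaling alike gave 0 lower ligands, TRAF and NF-kB genes, signalling genes and other receptors, and 1 lower inhibitory receptor. They gave 5 and 3 higher ligands, 11 and 10 higher TRAF and NF-kB genes and 11 and 10 higher signalling genes. Higher other receptors numbered 4 and 4, and higher inhibitory receptors 1 and 1. Of all tested genes 71.1% and 68.8% were higher, and 0.482% and 0.467% lower. Limma-voom with quality weights gave 4 lower ligands, 5 lower TRAF and NF-kB genes and 5 lower inhibitory receptors. It called 32.2% of all tested genes lower. A 1.5-fold minimum gave 1 lower and 1 higher ligand, 0 higher TRAF and NF-kB genes, 1 lower signalling gene and 1 lower inhibitory receptor. It called 16.1% of the 13480 tested genes lower and 3127 of them higher. Upper quartile factors and protein-coding genes alone gave 1 higher TRAF and NF-kB gene, and total counts alone gave 2 lower signalling genes. Over all tested genes, upper quartile factors called 4092 of 13480 higher and protein-coding genes alone 3611 of 11951. Total counts called 22.7% of them lower. With 1 pool left out, lower ligands numbered 2 to 3 and higher ones 2 to 3. Lower TRAF and NF-kB genes then numbered 2 to 4 and higher ones 0 to 3. Lower signalling genes numbered 1 to 6, lower other receptors 3 to 7 and lower inhibitory receptors 1 to 6. In those fits 16.4 to 27.4% of all tested genes were lower and 3444 to 4482 genes were higher. No paired analysis was made, since the labels used here state no pairing of pools between the groups. With 3 pools a group, exact tests cannot go below p = 0.1, and Slamf1 rests on 44 to 411 reads a library.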
